A study of Arabidopsis thaliana with 24 samples.

Results

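Wild-type Arabidopsis thaliana seedlings kept in constant light (LL) were compared with wild-type seedlings kept in light-dark cycles (LD), both after a mock treatment. The comparison holds 6 of the 24 Affymetrix ATH1 arrays of the series, 3 for each light regime, chosen by their sample titles. The series crosses 2 light regimes with 2 genotypes and 2 treatments, which gives 8 groups of 3 arrays. The LL mock group was Col-0 entrained for 12 days in cycles with 12 h of light per day and then moved to continuous light for 1 day. The LD mock group was Col-0 of the same age, 13 days, that remained in those cycles. Both groups were submerged for 3 h in Murashige-Skoog medium without ethanol and collected at ZT1. LD seedlings had thus had 1 h of light that morning, and LL seedlings had gone without the night before harvest. Both also received MG132, an inhibitor of the proteasome, at a concentration stated as 20 mM, so no group shows the light difference without it or without submergence. The other 6 groups are Col-0 given 2.5% ethanol and ALC::TOC1, a line that carries TOC1 under an ethanol-inducible switch, given mock or ethanol, each in LL and in LD.

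In LD the night before harvest is a period without photosynthesis, when leaves live on stored starch, and lights-on resets the circadian clock and starts a burst of light-responsive transcription. In constant light the night is left out, photosynthesis goes on and the clock runs without its daily reset. If harvest followed directly on the 3 h incubation, LD seedlings entered the medium before lights-on and LL seedlings in the light. Illumination during submergence, the missing night and clock state therefore changed together between these groups and cannot be told apart here.

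Values are log2 RMA expression values per probe set. Differences are LL minus LD in log2 units ± SE from limma fitted to all 24 arrays, with 3 arrays per group. Calls rest on p-values adjusted by Benjamini-Hochberg over all 22746 probe sets tested, with a limit of 0.05. Correlations across probe sets between the arrays were 0.9885 to 0.9932 within LL mock, 0.9896 to 0.9955 within LD mock and 0.9673 to 0.9793 between them. Array medians lay between 5.299 and 5.421. RCA, the activase of Rubisco and a leaf gene, stood at 12.94 to 13.07 in LL and 13.02 to 13.3 in LD in these green seedlings, near the top of the scale. Whether the 3 replicates of a group came from separate cultures is not stated. The p-values rest on the spread within all 8 groups of the series, which may be technical. No batch is named.

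Control probe sets set the wild-type LL mock arrays apart. The GAPDH 3' minus 5' control difference, which is larger in degraded RNA, was 1.58, 1.48 and 1.28 in LL and 1.03, 1.13 and 1.09 in LD. The ubiquitin pair gave 1.22, 1.3 and 1.13 in LL and 1.03, 1.03 and 1.04 in LD, also without overlap. Means in the other 6 groups, which include the other LL groups, were 0.834 to 1.13 for GAPDH and 0.939 to 1.15 for ubiquitin, below the LL mock means of 1.45 and 1.22. The actin pair overlapped, with means of 4.61 in LL and 4.48 in LD. A two-sided exact permutation test gave 0.1 for GAPDH and for ubiquitin, the smallest p that 3 arrays against 3 allow, and 0.5 for actin. The part of RNA quality in the gene results was not tested beyond a fit with the GAPDH difference as a covariate. Counts from that fit stand beside the lists where it moved them most.

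A large share of the transcriptome differed between the LL and LD mock groups. Limma called 3029 probe sets higher and 3265 lower in LL, 27.7% of those tested, with 13.3% higher and 14.4% lower. The called differences were mostly modest, with a median size of 0.578. At least 2-fold differences numbered 666 higher and 437 lower. At the level of 1 probe set per gene, 24.9% of 13286 genes were called, 11.6% higher and 13.3% lower, and these shares are the background for the lists that follow. The median difference was -0.0224 over all probe sets and -0.0244 over genes. Of the called probe sets, 305 had both group means under 4 log2 units and 493 had 1 such mean. Whether so low a level lies above background was not tested, so the sizes of those differences are uncertain.

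The 10 largest rises and falls of named genes were taken from those whose LL and LD arrays did not overlap, as in 38% of all probe sets. AT4G10270, one of the low-oxygen genes, stood at 8.44, 8.78 and 8.93 in LL, against 4.17, 4.13 and 3.74 in LD. Its difference of 4.70 ± 0.42 (adjusted p 9.24e-08) is 26-fold. AT5G66985, from the same list, had 8.01, 8.73 and 8.96 in LL and 5.87, 4.81 and 4.97 in LD, a rise of 3.35 ± 0.28 (adjusted p 5.75e-08). Both genes were thus high in all LL arrays and low in all LD arrays, which the choice fixed. TOPII, the DNA topoisomerase II of replicating and dividing cells, had 6.5, 6.59 and 5.82 in LL and 3.75, 3.75 and 3.77 in LD, a rise of 2.55 ± 0.23 (adjusted p 1.16e-07). AT5G17820, a class III peroxidase, stood at 6.84 to 7.12 in LL and 3.8 to 5.29 in LD, a rise of 2.61 ± 0.31 (adjusted p 3.57e-06). The other 6 of the 10 largest rises were AT4G11190, AT1G52070, AT4G29690, AT4G29030, AT2G16005 and AT5G01870, for which the annotation used here gives only the locus. They rose by 2.45 to 2.92.

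Among the falls, AT3G15310, which RefSeq lists as a pseudogene, stood at 3.37, 3.22 and 2.87 in LL and at 6.29, 6.91 and 6.45 in LD. Its difference was -3.40 ± 0.29 (adjusted p 5.75e-08), and all LL values were under 4. COR15A, a cold-induced protein that protects chloroplast membranes during freezing, had 7.29, 8.42 and 7.11 in LL and 10.24, 10.4 and 10.24 in LD, a fall of 2.68 ± 0.41 on the log2 scale (adjusted p 5.72e-05). The heat-shock genes AT1G54050 and AT5G51440 fell by 2.84 ± 0.44 and 2.82 ± 0.26. AT2G15020 had 4.06, 4.11 and 4.31 in LL and 6.84, 7.04 and 6.66 in LD, and its adjusted p of 8.09e-10 was the smallest among the 20 largest changes. The remaining 5 falls, AT5G42760, AT3G57700, AT1G73480, AT3G44450 and AT5G16960, lay between -3.19 and -2.54. The largest fall on the array, -5.29 ± 0.17, belonged to a probe set that the annotation used here does not name.

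**Figure D1:**
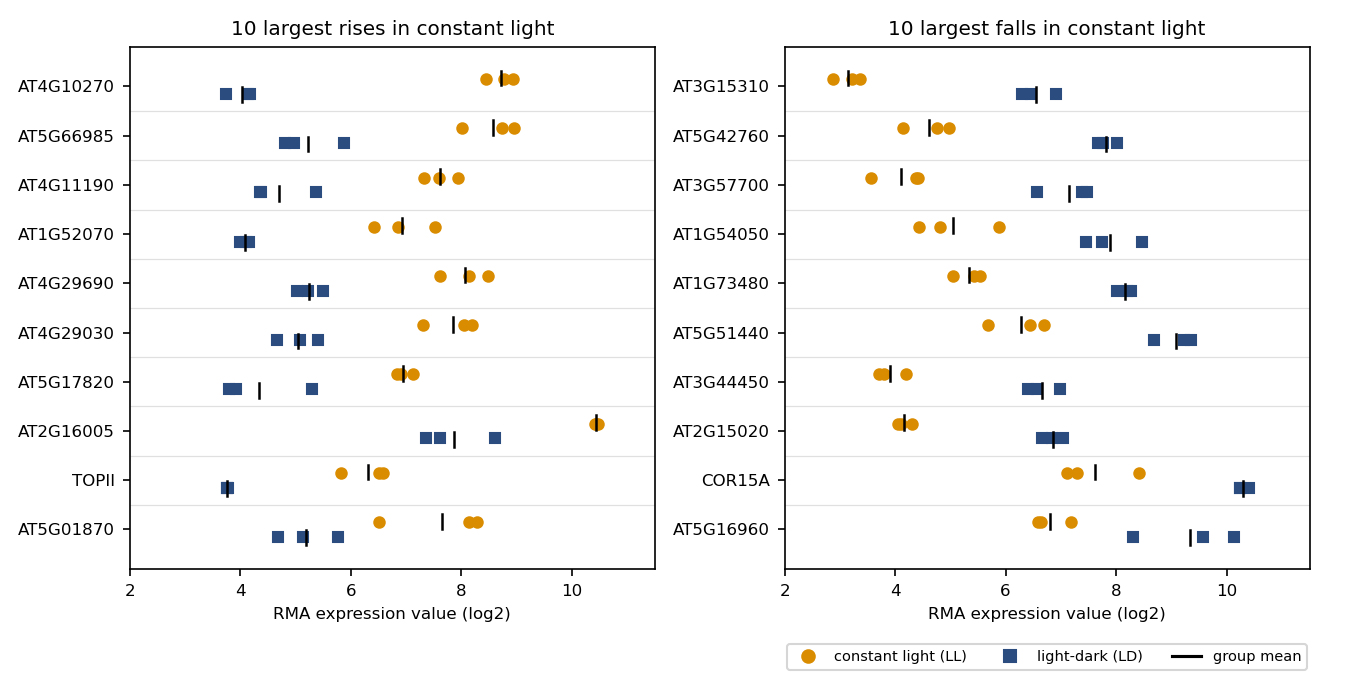
RMA expression values (log2, x axis) of the 10 largest rises (left) and 10 largest falls (right) among called, named genes whose LL and LD arrays do not overlap; circles are the 3 LL arrays, squares the 3 LD arrays and vertical ticks the group means. AT4G10270 has all LL arrays at 8.44 or more and all LD arrays at 4.17 or less, and COR15A has the reverse order, with LD arrays at 10.24 to 10.4.

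The circadian clock keeps near-daily rhythms through interlocking loops of transcription factors, and several of its genes, with their outputs, peak at fixed times of day. Only 5 of the 41 clock genes listed had a named probe set, and CCA1, LHY, TOC1 and the PRR genes were not analysed here. GI (GIGANTEA), an evening-phased protein that links the clock to flowering and blue-light signalling, had 4.8, 4.77 and 5.24 in LL and 6.51, 5.76 and 6.68 in LD. All LL values were below all LD values, and the difference was -1.38 ± 0.19 (adjusted p 1.94e-05). XCT (XAP5 CIRCADIAN TIMEKEEPER) differed by 0.02 ± 0.09 and FIO1 (FIONA1) by -0.13 ± 0.16, with overlapping arrays and adjusted p of 0.913 and 0.621. TIC (TIME FOR COFFEE) differed by -0.13 ± 0.09 and did not pass either (adjusted p 0.346), although its arrays did not overlap. AT5G52660 stood at 5.69, 5.88 and 6.23 in LL and 6.35, 6.24 and 6.17 in LD. Its difference of -0.32 ± 0.15 missed the threshold (adjusted p 0.117) but passed without LL replicate 3 (0.0253).

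Of the light-signalling genes only HYH, a bZIP factor that promotes light-grown development, had a named probe set. It stood at 8.62, 8.39 and 8.46 in LL and 9.61, 9.73 and 9.51 in LD, a fall of 1.13 ± 0.11 on the log2 scale (adjusted p 2.64e-07). Flavonoid genes make pigments and sunscreens in strong light. Of 6 measured, 1 rose and 1 fell. DFR, an enzyme of the anthocyanin branch, rose by 0.84 ± 0.21 (adjusted p 0.00423). It was dim, with 4.4, 4.58 and 3.86 in LL and 3.66, 3.24 and 3.44 in LD. When dim probe sets were left out, 2 of the 6 genes remained, and 0 of these rose. UGT78D2, which adds glucose to flavonols and anthocyanidins, fell by 1.87 ± 0.13 on the log2 scale (adjusted p 3.06e-09), with 6.96 to 7.16 in LL and 8.74 to 9.04 in LD. Of 4 antioxidant genes 1 rose, AT3G11630, by 0.77 ± 0.15.

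Heat-shock proteins are chaperones that hold damaged proteins, and their genes are induced by heat and by other stresses that unfold proteins. Of 11 measured heat-shock genes 6 fell and 0 rose in LL, with a median of -1.36 against -0.0244 over all genes. AT1G54050 had 4.44, 4.82 and 5.88 in LL and 8.47, 7.45 and 7.74 in LD (adjusted p 5.82e-05). AT5G51440 had 6.44, 5.68 and 6.69 in LL and 9.22, 8.69 and 9.36 in LD (adjusted p 1.52e-07). Hop3, a co-chaperone that joins HSP70 and HSP90, had 6.91, 6.36 and 6.94 in LL and 9.17, 8.32 and 8.99 in LD, a fall of 2.09 ± 0.23 (adjusted p 1.45e-06). The FK506-binding co-chaperone FKBP65 (AT5G48570) fell by 2.17 ± 0.45 and AT2G29500 by 1.77 ± 0.41. The remaining call, AT1G53540, fell by 1.36 ± 0.41 (adjusted p 0.017). In all 6 called genes every LL array lay below every LD array. Most calls on the array share this, as 27.7% of all probe sets were called and 25.7% were called without overlap. Of the 5 that did not pass, AT5G37670 averaged 3.46 in LL and 4.09 in LD and ATHSP22.0 averaged 3.49 in LL and 3.88 in LD, near the bottom of the scale. With the GAPDH covariate 4 of 11 fell, and AT2G29500 (0.0643) and AT1G53540 (0.218) missed the threshold. AT1G53540 also missed it with 1 array left out (up to 0.101). Of 3 unfolded-protein genes of the endoplasmic reticulum, ATERDJ3B fell by 0.42 ± 0.10 (adjusted p 0.00351). This call was lost in a fit of the 6 arrays alone (0.0558) and with a replicate block (0.08).

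Cold and dehydration genes went both ways. Beside COR15A, COR27 fell by 1.33 ± 0.31 on the log2 scale (adjusted p 0.00256), with 5.67, 5.3 and 6.61 in LL and 7.63, 6.78 and 7.18 in LD. AT4G33980 had 6.53, 6.55 and 6.99 in LL and 5.35, 4.91 and 5.31 in LD, a rise of 1.5 ± 0.18 (adjusted p 4.37e-06). LTI30, a dehydrin, rose by 0.44 ± 0.10. COR15B and COR47 did not pass, at -0.69 and -0.22. The list of 6 thus holds 2 rises and 2 falls.

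Plants sense low oxygen through oxygen-dependent breakdown of group VII ERF factors, which switch on a small set of genes in submerged tissue. Of 16 measured low-oxygen genes 8 rose and 1 fell in LL, with a median of 0.52, and 8 rose with the GAPDH covariate too. After AT4G10270 and AT5G66985, the largest rise was that of HRA1 (AT3G10040), a factor that restrains the low-oxygen response, at 2.34 ± 0.40 (adjusted p 0.000152). HRA1 had 6.35, 7.28 and 7.55 in LL and 4.94, 4.65 and 4.56 in LD. AT1G33055 rose by 2.03 ± 0.32, AT4G24110 by 1.91 ± 0.24, CML38 by 1.46 ± 0.28 and AT3G27220 by 0.92 ± 0.27 (up to 0.0554 with 1 array left out). PDC2, a pyruvate decarboxylase of ethanol fermentation, rose by 0.54 ± 0.15 (adjusted p 0.00808), with 8.18 to 8.46 in LL and 7.75 to 7.91 in LD. AT1G19530 went the other way, at -0.87 ± 0.23 (adjusted p 0.00589, and 0.0515 with the covariate). AT5G10040 did not pass (adjusted p 0.2), with 4.73, 6.7 and 6.66 in LL and 7.44, 6.69 and 6.84 in LD. By array, the mean level of the 16 genes was 7.69, 8.25 and 8.4 in LL and 7.44, 7.09 and 7.05 in LD, and LL replicate 1 stood closest to LD.

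**Figure D2:**
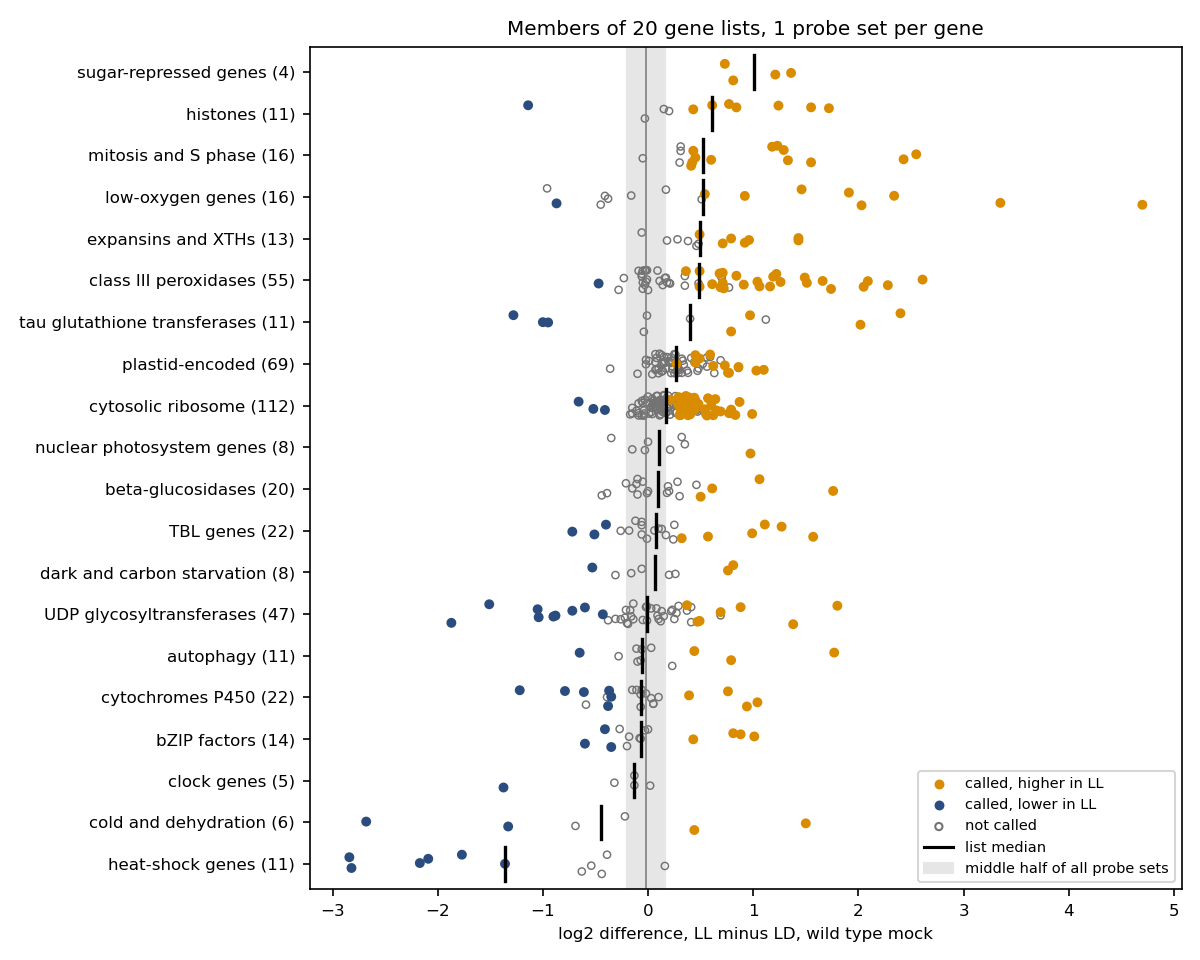
Difference between LL and LD in wild-type mock seedlings (log2, x axis) for each measured member of 20 gene lists (rows, with the number measured); filled points were called, open points were not, black ticks are list medians and the grey band is the middle 50% of all probe sets. The heat-shock median lies at -1.36 and the low-oxygen points reach 4.70.

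Expansins and xyloglucan endotransglucosylase/hydrolases (XTHs) loosen and remodel the growing cell wall. Of 13 measured 7 rose and 0 fell, with a median of 0.49 and 12 positive differences. XTH20 had 5.79, 5.45 and 4.82 in LL and 3.92, 3.88 and 3.98 in LD, a rise of 1.43 ± 0.20 (adjusted p 1.51e-05). XTH16 rose by 1.43 ± 0.24 and EXLA2, an expansin-like protein, by 0.79 ± 0.17. The mean level of the list was 7 to 7.06 in LL and 6.24 to 6.46 in LD.

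Class III peroxidases are secreted enzymes that cross-link or loosen cell walls, and many are expressed mainly in roots. Of 55 measured 25 rose and 1 fell, with a median of 0.48, in a list added after values of this comparison were seen. AT4G26010 had 6.81, 6.97 and 6.43 in LL and 4.7, 5.05 and 4.2 in LD, a rise of 2.09 ± 0.24 (adjusted p 2.3e-06). AT5G51890 rose by 1.74 ± 0.26, AT4G30170 by 2.28 ± 0.34 and AT3G01190 by 2.05 ± 0.31. AT1G71695 fell by 0.47 ± 0.16 on the log2 scale. This fall was lost without LL replicate 2 or 3 or LD replicate 3. With the GAPDH covariate 17 rose and 0 fell, and 14 of the 21 that remained without dim probe sets rose. Root hair markers, measured as a check on root tissue and also added after values of this comparison were seen, gave 1 rise in 5 genes. Their mean level was 3.75 to 3.93 in LL and 3.68 to 3.69 in LD, near the bottom of the scale. The rise, EXPA18 at 0.37 ± 0.13 (adjusted p 0.0457), was lost without LL replicate 2 or 3 or LD replicate 1, with the covariate and under both other scalings. FMA (FAMA), a master regulator of guard cells and the 1 measured marker of them, stood at 4.87 to 5.13 in LL and 5.64 to 5.73 in LD, a fall of 0.67 ± 0.11 on the log2 scale. The part of tissue make-up in these results was not tested. In whole seedlings, a change in the number of cells of a type and a change in RNA per cell cannot be told apart.

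Of 16 measured genes of mitosis and DNA replication 12 rose and 0 fell, with a median of 0.52, in a list extended after values of this comparison were seen, and 12 rose with the GAPDH covariate too. AUR1, an Aurora kinase that guides chromosome segregation, had 6.29, 6.64 and 5.99 in LL and 4.85, 4.6 and 4.81 in LD, a rise of 1.55 ± 0.15 (adjusted p 3.2e-07). AUR2 rose by 1.18 ± 0.18 and PRL (MCM7), a subunit of the helicase that opens replication origins, by 1.29 ± 0.18. 3xHMG-box2, a chromatin protein that binds mitotic chromosomes, had 6.94, 7.27 and 5.93 in LL and 4.43, 4.15 and 4.28 in LD, a rise of 2.43 ± 0.34 (adjusted p 1.71e-05). Its near relative 3xHMG-box1 differed by -0.05 and did not pass (adjusted p 0.897). The shorter list from which this one was extended had 3 rises among 4 measured genes. Many members were dim. When probe sets with a mean under the array median were left out, 4 of the 16 remained, and 3 of these rose.

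Histones package new DNA and are made mainly in S phase. Of 11 measured 7 rose and 1 fell, in a list added after values of this comparison were seen. HTB2, a histone H2B, had 7.71, 7.98 and 7.22 in LL and 5.42, 6.2 and 6.13 in LD, a rise of 1.72 ± 0.23 (adjusted p 1.52e-05). AT2G37470 rose by 1.55 ± 0.12 (adjusted p 2.1e-08) and AT1G06760 by 1.24 ± 0.21, while HTB1 and HTB11 rose by 0.77 and 0.84. HIS1-3, a linker histone variant known for its induction by drought, fell by 1.14 ± 0.25 on the log2 scale (adjusted p 0.0015), at 4.38 to 4.89 in LL and 5.49 to 5.92 in LD.

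Cytosolic ribosomal proteins set the capacity for protein synthesis. Of 112 measured 38 rose, 3 fell and 71 did not pass, 93 differences were positive and the median was 0.17. AT2G01250 had 11.25, 11.49 and 11.3 in LL and 10.71, 10.8 and 10.74 in LD, a rise of 0.60 ± 0.09 (adjusted p 4.4e-05). AT2G40010 rose by 0.87 ± 0.12, AT5G22440 by 0.79 ± 0.13 and AT4G34555 by 0.99 ± 0.18, while AT5G39850 fell by 0.66 ± 0.14. The number of rises was 22 without LL replicate 2 and 24 without LD replicate 3. Of 10 nuclear genes for plastid ribosomal proteins 4 rose, with AT1G29070 at 0.52 ± 0.13, AT1G64510 at 0.43 ± 0.12 and AT5G47190 at 0.50 ± 0.17. That number was 2 without any one of LL replicates 2 and 3 and LD replicates 1 and 3, and AT5G47190 was lost in each of these 4 cases (adjusted p 0.0568 to 0.132).

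The plastid genome encodes core subunits of the photosystems and of the plastid's own gene expression machinery. Of 69 measured plastid genes 12 rose and 0 fell, 65 differences were positive and the median was 0.27. Their share called was under the 24.9% of all genes called, though above the 11.6% called higher. By role, the RNA polymerase genes had 3 rises among 4 and a median of 0.63. The small-subunit ribosomal genes had 3 among 8 and a median of 0.48. The large-subunit ribosomal genes had 1 among 7 (0.29), the ATP synthase genes 0 among 6 (0.2) and the remaining genes 2 among 8 (0.32). The photosystem I genes had 1 among 5 (0.07), the photosystem II genes 2 among 15 (0.14), the cytochrome b6f genes 0 among 6 (0.39) and the ndh genes 0 among 10 (0.25). rps15, a small-subunit protein, had 9.32, 9.1 and 9.07 in LL and 8.03, 8.36 and 8 in LD, a rise of 1.03 ± 0.20 (adjusted p 0.000447). rbcL, the large subunit of Rubisco, had 12.14, 12.19 and 11.99 in LL and 11.44, 11.63 and 11.39 in LD, a rise of 0.62 ± 0.14 (adjusted p 0.00227). rps2 rose by 0.59 ± 0.15 (adjusted p 0.0049), and rpoC2 and rpoB by 0.86 and 0.77. The 12 rises numbered 6 without LD replicate 1, 7 without LD replicate 3, 18 without LD replicate 2 and 4 with the GAPDH covariate. With the covariate rps2 (0.0686) and rpoC2 (0.106) missed the threshold, and rpoB missed it with 1 array left out (0.0502). Plastid transcripts mostly lack long poly(A) tails, and how the labelling recovered them was not tested.

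Few of the measured nuclear photosynthesis genes passed. Of 8 photosystem and antenna genes 1 rose, LHCB4.3, by 0.97 ± 0.22 (adjusted p 0.00217), at 5.43 to 5.95 in LL and 4.71 to 4.83 in LD. The number was 3 without LD replicate 2 and 3 with the GAPDH covariate. Of 3 Calvin cycle genes and 3 photorespiration genes 0 passed by limma, and 1 of each had an unadjusted p under 0.05. Among 7 chlorophyll and carotenoid genes, PORB, which makes chlorophyllide in the light, had 8.05, 8.49 and 7.45 in LL and 6.15, 6.92 and 6.71 in LD, a rise of 1.4 ± 0.30 (adjusted p 0.00128). Geranylgeranyl reductase (AT1G74470) fell by 0.68 ± 0.13 on the log2 scale. LYC, lycopene beta-cyclase, fell by 0.38 ± 0.13 (adjusted p 0.0334), with overlapping arrays, and missed the threshold without LL replicate 1 (0.252) or LD replicate 2 (0.203) and with the covariate (0.083).

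Carbon status genes gave a mixed picture. All 4 measured members of a short list of 10 genes that sugars repress were higher in LL, with a median of 1.01. That list was added to the first set of lists, with earlier results of these data known. AT3G15630 had 10.47, 10.75 and 10.76 in LL and 9.43, 9.22 and 9.27 in LD, a rise of 1.36 ± 0.12 (adjusted p 7.66e-08). GAT1_2.1, a glutamine amidotransferase, rose by 1.21 ± 0.17 and AT3G15450 by 0.81 ± 0.11. A second, dimmer probe set of GAT1_2.1 gave 0.46 (adjusted p 0.0109). AT5G19120 rose by 0.73 ± 0.12. In a wider list with 8 measured dark and starvation genes, 2 rose and 1 fell, with a median of 0.07. BZIP53, a factor that activates amino acid breakdown in starvation, had 10.84, 10.76 and 10.83 in LL and 9.95, 10.05 and 9.97 in LD, a rise of 0.81 ± 0.09 (adjusted p 1.39e-06). AT5G38710 rose by 0.76 ± 0.16. D2HGDH, an enzyme of amino acid breakdown, fell by 0.53 ± 0.17, a call lost without LL replicate 1 or 2 or LD replicate 1 or 2 and with the covariate. SBE2.2, a starch branching enzyme, rose by 0.65 ± 0.11, as 1 of 3 starch synthesis genes. That number was 2 without LD replicate 2.

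Autophagy delivers cell contents to the vacuole, and ATG8 proteins coat the growing membrane. Of 11 autophagy genes 3 rose and 1 fell. ATG8E had 9.46, 9.71 and 10.07 in LL and 7.85, 8.21 and 7.86 in LD, a rise of 1.77 ± 0.17 (adjusted p 2.84e-07). ATG8H rose by 0.79 ± 0.15 and ATG8F by 0.44 ± 0.13, whereas AT3G61960 fell by 0.65 ± 0.12. The call of ATG8F was lost with 1 array left out (up to 0.0884). The other 6 genes of that family, ATG8B, ATG8C, ATG8D, ATG8G, APG8A and APG8H, lay between -0.28 and 0.23 and did not pass.

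Ubiquitin tags proteins for the proteasome, which MG132 inhibits in both groups. The 2 measured proteasome genes, RPN12a and AT2G32730, differed by -0.17 and -0.02. Of them 0 passed by limma, and 0 had an unadjusted p under 0.05. Among 12 ubiquitin-conjugating enzymes 3 rose and 1 fell. UBC19 rose by 0.61 ± 0.09 and UBC20 by 1.04 ± 0.15, both known for roles in the cell cycle, and UBC28 fell by 0.58 ± 0.10. Among 9 U-box ligases 2 fell, PUB43 by 0.76 ± 0.18 and PUB49 by 0.34 ± 0.10. The share called was 22.2%, against 24.9% of all genes called and 13.3% called lower. In a fit of the 6 arrays alone PUB43 and PUB49 both missed the threshold (0.0579 and 0.0605). PUB49 also missed it with the covariate (0.113) and without LL replicate 2 (0.0963) or LD replicate 1 (0.082).

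Counts for detoxification families stand against 24.9% of all genes called, 11.6% higher and 13.3% lower. Whether a family's share differed from these was not tested. Tau glutathione transferases join glutathione to toxic or oxidised compounds. Of 11 measured 4 rose and 3 fell, so 63.6% were called. GSTU20 had 8.91, 8.92 and 8.23 in LL and 5.47, 6.68 and 6.71 in LD, a rise of 2.40 ± 0.40 (adjusted p 0.000124), and GSTU25 rose by 2.02 ± 0.38. GSTU16 had 6.35, 6.46 and 6.79 in LL and 7.56, 8.26 and 7.63 in LD, a fall of 1.28 ± 0.16 (adjusted p 6.99e-06). GSTU18 fell by 0.95 ± 0.16 and GSTU23 rose by 0.79 ± 0.13, with LD values of 3.27 to 3.57. UDP glycosyltransferases attach sugars to hormones and secondary products. Of 47 measured 7 rose and 9 fell, with UGT71C3 at 1.8 ± 0.18 and UGT72B3 at -1.51 ± 0.15. The share called was 34%, with most members not called. The rises numbered 3 without LD replicate 3 and 4 with the covariate. Of 22 cytochrome P450 genes 4 rose and 6 fell, so 45.5% were called. Of these, CYP51G2, a transcribed pseudogene in RefSeq, rose by 0.94 ± 0.14. CYP71B23 fell by 1.22 ± 0.28 and CYP71B5 by 0.79 ± 0.16. The rises numbered 2 without LL replicate 1 or with the covariate, and the falls 3 without LL replicate 3 or LD replicate 2. In a fit of the 6 arrays alone 2 rose and 2 fell. Only 2 of the 22 remained without dim probe sets, and neither was called. Of 20 beta-glucosidases 4 rose and 0 fell, with BGLU15 at 1.76 ± 0.26, BGLU33 at 1.06 ± 0.26 and BGLU42 at 0.61 ± 0.14. Their share called, 20%, was under the 24.9% of all genes called, though above the 11.6% called higher.

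Among 5 auxin and shade genes HAT2 rose by 0.97 ± 0.22 and GH3.3, which conjugates auxin to amino acids, by 1.41 ± 0.38. IAA29 fell by 0.58 ± 0.14, at 3.22 to 3.39 in LL and 3.59 to 4.12 in LD, with both group means under 4. GH3.3 spread from 5.23 to 7.03 in LD, and its call was lost without LD replicate 1 (0.0626) and with the covariate (0.0619). Of 7 Aux/IAA genes, repressors of auxin response, 2 fell, IAA29 as above and IAA18 by 0.85 ± 0.12 (adjusted p 2.87e-05). Their share called was 28.6%, against 24.9% of all genes called and 13.3% called lower. Of 7 calmodulin-like genes CML38 rose, CML23 fell by 1.27 ± 0.24 and CML41 by 0.69 ± 0.16. Of 14 bZIP factors 4 rose and 3 fell, with bZIP44 at 0.88 ± 0.17 and BZIP17, a stress sensor of the endoplasmic reticulum, at -0.60 ± 0.09. The rises numbered 2 without LD replicate 1, and the falls 1 without LL replicate 2 or LD replicate 3. Of 14 SWEET sugar transporters the vacuolar SWEET16 and SWEET17 rose by 0.57 ± 0.16 and 0.55 ± 0.12, and SWEET1 fell by 0.51 ± 0.16. The share called, 21.4%, was under the 24.9% of all genes. SWEET16 and SWEET1 were both lost without LL replicate 3 or LD replicate 3, and SWEET1 with the covariate (0.124). SIR, sulfite reductase, rose by 0.78 ± 0.12 (adjusted p 7.14e-05). APS3, an ATP sulfurylase, rose by 0.64 ± 0.21, a call lost without LL replicate 1 or 2 or LD replicate 1 or 3 and with the covariate (0.124). Of 22 TBL genes, whose products acetylate wall polysaccharides, 6 rose and 3 fell, with TBL38 at 0.99 ± 0.15, TBL39 at 1.11 ± 0.21 and TBL37 at -0.51 ± 0.09. In a fit of the 6 arrays alone 4 rose and 1 fell.

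The same light contrast was then read in the 3 other settings of the series, which share no array with the wild-type mock comparison. Limma called 5489 probe sets in ALC::TOC1 under mock (24.1%, with 12.8% higher and 11.4% lower). It called 8855 in wild type under ethanol (38.9%, with 19.7% higher and 19.2% lower). It called 4991 in ALC::TOC1 under ethanol (21.9%, with 11.2% higher and 10.7% lower). Of the 3029 wild-type mock rises, 54% were also called higher in ALC::TOC1 mock, 73.7% in wild-type ethanol and 35.9% in ALC::TOC1 ethanol. As shares of each other setting's rises these are 56.4%, 49.7% and 42.6%. Of the 3265 falls, 52.8%, 68.9% and 39.9% were also called lower there, which are 66.7%, 51.5% and 53.4% of the falls in those settings. Opposite calls numbered 21, 56 and 123 probe sets. In all 4 settings 717 probe sets were called higher and 935 lower. Across the 22746 probe sets, which are not independent, the wild-type mock differences correlated with r of 0.731, 0.782 and 0.535. Arrays of all settings were normalised together.

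**Figure D3:**
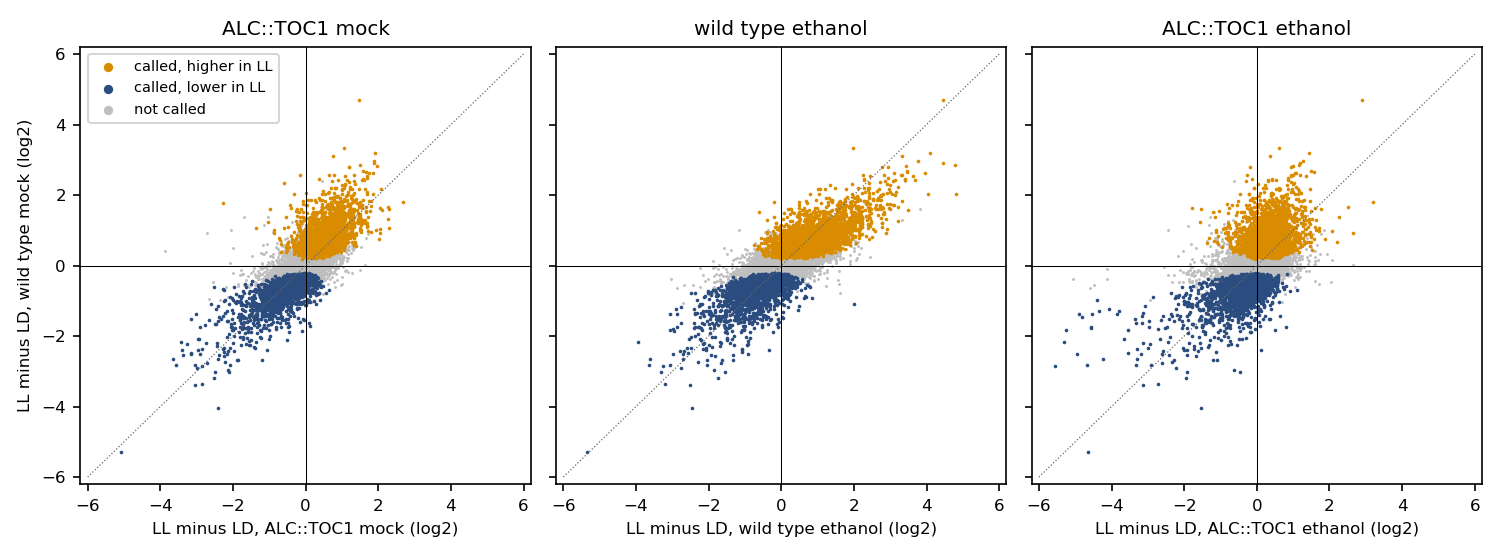
Difference between LL and LD (log2) in wild-type mock seedlings (y axis) against the same difference in ALC::TOC1 mock, wild-type ethanol and ALC::TOC1 ethanol seedlings (x axes), 1 point per probe set; coloured points were called in wild type mock, grey ones were not, and the dotted line marks equal differences. The Pearson correlations are 0.731, 0.782 and 0.535.

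At 1 probe set per gene, the shares called were 21.5% in ALC::TOC1 mock (11.6% higher, 9.86% lower), 35.2% in wild type ethanol (17.6% higher, 17.6% lower) and 19.4% in ALC::TOC1 ethanol (10.2% higher, 9.16% lower). GI, UGT78D2 and HYH fell in each setting. The difference for GI was -1.38 in wild type mock, against -1.36 in ALC::TOC1 mock, -1.51 in wild type ethanol and -1.03 in ALC::TOC1 ethanol. UGT78D2 gave -1.87, against -1.84, -1.55 and -1.42 in that order, and HYH -1.13, against -1.12, -1.47 and -1.32. The heat-shock list fell in each setting, with 6 of 11 genes in wild type mock, 5 in ALC::TOC1 mock, 10 in wild type ethanol and 10 in ALC::TOC1 ethanol. The medians were -1.36, -1.12, -2.41 and -4.56. Of 16 mitosis genes 12, 9, 14 and 5 rose, and 0, 1, 0 and 1 fell. Of 5 root hair genes 1, 4, 3 and 4 rose and 0 fell in each setting, with medians of 0.13, 0.62, 1.03 and 0.63. All 5 were dim, and 0 of them remained without dim probe sets. The low-oxygen list did not keep its pattern. It had 8 rises and 1 fall in wild type mock, 3 rises and 7 falls in ALC::TOC1 mock, 7 and 4 in wild type ethanol and 2 and 4 in ALC::TOC1 ethanol. The plastid genes had 12 rises and 0 falls in wild type mock, 0 and 5 in ALC::TOC1 mock, 19 and 0 in wild type ethanol and 0 and 1 in ALC::TOC1 ethanol.

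**Figure D4:**
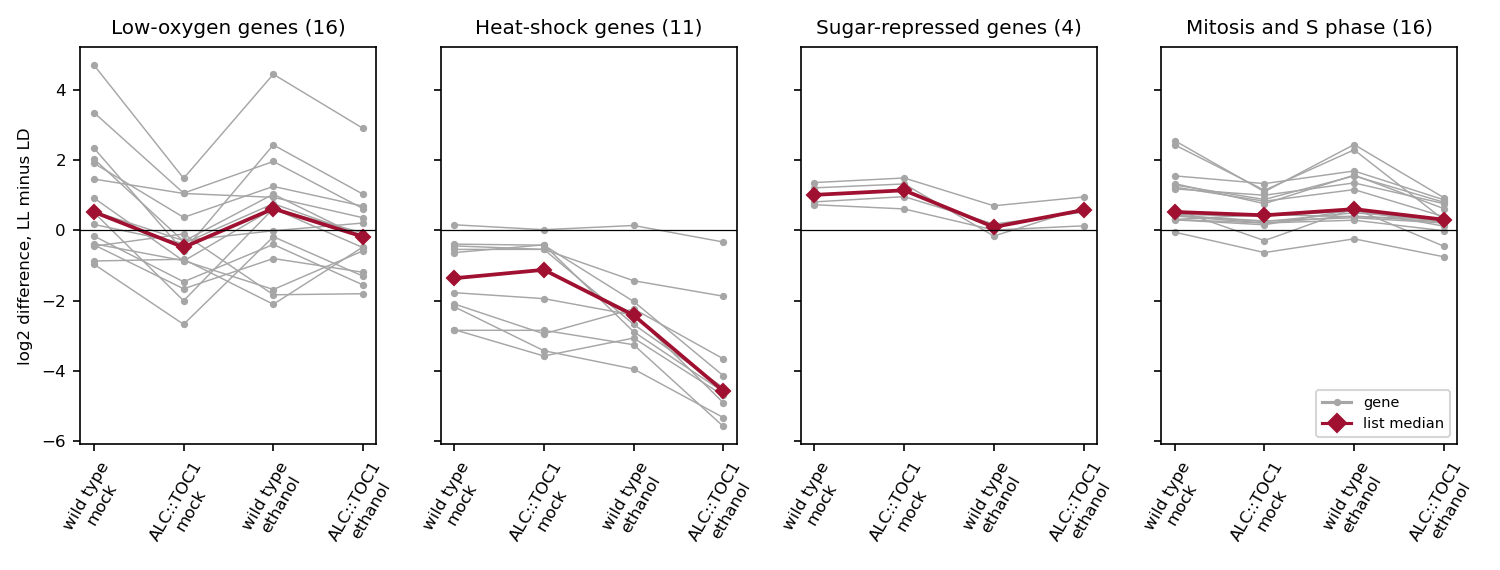
Difference between LL and LD (log2, y axis) for each member (grey) and the median (red) of 4 gene lists in the 4 genotype and treatment settings (x axis). The low-oxygen medians are 0.52, -0.48, 0.62 and -0.18, and the heat-shock medians -1.36, -1.12, -2.41 and -4.56.

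Whether the light difference itself differed was tested as an interaction. Wild type mock minus ALC::TOC1 mock gave 118 calls (0.519%), of which 75 (0.33%) were positive and 43 (0.189%) negative. At 1 probe set per gene these shares were 0.467%, 0.271% and 0.196%. An unadjusted p under 0.05 was reached by 3164 probe sets. The number was 545 without wild-type LL mock replicate 3 and between 53 and 132 without any other single array. Of 16 low-oxygen genes 6 passed, and in all 6 the difference was more positive in wild type. AT4G10270 had a light difference of 4.70 in wild type and 1.48 in ALC::TOC1, which differ by 3.22 ± 0.59 (adjusted p 0.0128). AT5G66985 gave 3.35 and 1.06, which differ by 2.28 ± 0.40 (adjusted p 0.0117). Of 69 plastid genes 0 passed by limma, against 32 at an unadjusted p under 0.05. Wild type mock minus wild type ethanol gave 1348 calls (5.93%), of which 536 (2.36%) were positive and 812 (3.57%) negative. At 1 probe set per gene these shares were 5.31%, 2.21% and 3.11%. An unadjusted p under 0.05 was reached by 4731 probe sets. The number called was 802 without wild-type LL mock replicate 3, 780 without LD mock replicate 3, 743 without LL ethanol replicate 2 and 833 without LD ethanol replicate 2. Of 112 cytosolic ribosomal genes 53 passed with a light difference that was less positive or more negative under mock. All 4 sugar-repressed genes passed with a more positive light difference under mock, with GAT1_2.1 at 1.21 under mock and -0.16 under ethanol (adjusted p of the difference 0.00298).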

How the data were processed

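Transcripts of whole seedlings were measured on Affymetrix ATH1 arrays. The deposited log2 values were made by the authors with RMA in the Bioconductor package affy, versions not given in the sources used here, per the submitters' processing notes. RMA subtracts background, quantile-normalises all arrays together and summarises probes, so a shift common to all genes would not show. The values run from 2.165 to 13.7. Arrays have no read depth, and their number limits precision.

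The table holds 22810 probe sets. Without its 64 control probe sets, all were tested, with no filter. GEO's platform annotation gives a single gene for 13513 probe sets, more than 1 for 503 and no name for 8730. RefSeq held 13436 of the single names, giving 13286 genes, and 144 genes with more than 1 probe set were represented by the brightest. No genome build is named, so no positions are given.

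A linear model with 1 mean per group was fitted in limma 3.58.1 (R 4.3.3) with 16 residual and 4.87 prior degrees of freedom. Calls needed a Benjamini-Hochberg adjusted p under 0.05, two-sided. The step was checked on simulated data. The comparison, the genes described and the lists were chosen with earlier results of these data known. Among the lists, peroxidases, root hair genes, histones and the longer mitosis list were added after values of this comparison were seen. The short list of sugar-repressed genes was also an added one. Of 52 lists 38 had at least 3 measured members. Named are all measured clock genes, the 10 largest rises and falls without overlap between arrays, and up to 3 called members of each list with the smallest adjusted p. Other named genes were chosen after their values were seen. Promoters were not searched, as no promoter sequences were used here. Alternatives were a fit of the compared groups, a replicate block, a filter on dim probe sets, other scalings, array weights, trend and robust settings, a 2-fold minimum, the GAPDH covariate and each array left out.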

Additional observations from a re-analysis of the deposited data

Results flagged for a closer look

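The light difference of several named genes differed between settings, by limma's interaction test at an adjusted p under 0.05. Each value is the light difference (LL minus LD) in wild type mock minus that in the other setting, and all values share the wild-type mock arrays. Against ALC::TOC1 mock, it was 3.22 for AT4G10270, 2.28 for AT5G66985 and 1.54 for AT4G24110 (low-oxygen genes), 1.45 for TOPII, 0.88 for GSTU23, 0.62 for BZIP53 and -0.97 for UGT72B3. Of these 7, AT4G10270 alone passed under every alternative run. Leaving out 1 array gave an adjusted p of up to 0.137 for TOPII, 0.122 for AT4G24110, 0.0983 for UGT72B3, 0.0946 for GSTU23 and 0.0748 for BZIP53.

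Against wild type ethanol, the light difference was larger under mock for GAT1_2.1 (1.37), AT4G33980 (1.15), ATG8E (1.06), AT3G15630 (0.65), AT3G15450 (0.63), AT5G66985 (1.38), AT2G37470 (0.65) and BZIP53 (0.43). It was lower under mock for the ribosomal protein genes AT5G22440 (-0.86), AT2G40010 (-0.82) and AT2G01250 (-0.55), and for AT1G52070 (-1.94), BGLU42 (-1.13) and EXPA18 (-0.67). AT3G57700 (-1.49) and UGT72B3 (-0.93) fell more under mock, and CML41 fell less (1.2). ATERDJ3B (-0.54) had a light difference of -0.42 under mock and 0.11 under ethanol. Of these 18, the 5 that passed under every alternative run were AT3G57700, AT2G40010, GAT1_2.1, BGLU42 and CML41. Groups of 3 arrays were not screened gene by gene for an outlying array. Array weights estimated over all probe sets ran from 0.607 to 1.56 in LL mock and from 0.527 to 2.31 in LD mock.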

How the results depend on the processing

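The count of 6294 calls stayed within 1.5 times of itself under each alternative but the 2-fold minimum, which left 1103 (666 higher, 437 lower). With any 1 array left out it ranged from 4782 to 5973, with 2277 to 2905 higher and 2505 to 3098 lower, and with the GAPDH covariate it was 4656. The genotype interaction of 118 calls was 1381 with array weights, 76 with the 2-fold minimum, and 53 to 545 with 1 array left out. The ethanol interaction of 1348 calls was 612 with only the compared groups fitted, 600 with the GAPDH covariate, 348 with the 2-fold minimum, and 743 to 1668 with 1 array left out. With the replicate number as a block these counts were 4973, 47 and 511. Deviations of same-numbered LL and LD arrays correlated at 0.0515, 0.459 and -0.0375, so the numbers were not taken as pairs. Array medians centred on one value gave 45.5% of calls higher, against 48.1% as deposited. The cause of these changes was not tested.

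Of the 102 genes named by the rule above, 93 to 102 kept direction and call under each alternative that fits them all. The 83 of them that remained without dim probe sets did so too. Genes named beyond that rule, chosen after their values were seen, are not in these counts. XCT, never called, changed sign when arrays were centred (-0.0), with array weights (-0.01) and without LL replicate 2 (-0.02) or LD replicate 2 (-0.04), within a range of -0.04 to 0.07 with 1 array left out, and FIO1, never called, with the covariate (0.02). Among the 102, LYC, EXPA18, D2HGDH, APS3 and PUB49 lost their calls most often.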
